A study of Homo sapiens with 52 samples.

Results

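Merck60 and OJI-1 are small molecules whose labelled targets are HDAC1/2 and HDAC8. They were 2 of 20 compounds in an RNA-seq screen of the fusion-positive rhabdomyosarcoma (FP-RMS) cell line RH4, a childhood muscle-lineage tumour line that carries the PAX3-FOXO1 fusion. The sample titles name the line RH41, while the cell line label says RH4. Each compound was given for 6 h at 10 µM and at 1 µM, with 1 sample per dose, so the 4 samples described here are 4 of the 52 in the series and 4 of the 44 in the screen. The controls were 4 samples that received DMSO, the solvent, 2 at 0.2% and 2 at 0.1%. All of them were cells of 1 line, and the labels do not say whether they came from separate cultures. In the main tests the 2 doses of a compound served as its replicates. The p-values thus measure only the spread between higher and lower dose within compounds, pooled over the screen, and between the 2 DMSO concentrations. Genes are reported where the mean DMSO level was 5 TPM (transcript abundance scaled to a fixed total per library) or more, which kept 10877 genes.

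Histone deacetylases remove acetyl groups from lysines of histones and other proteins. HDAC1 and HDAC2 work inside nuclear co-repressor complexes, HDAC3 works in a complex of its own, and HDAC8 acts without such a complex and deacetylates the cohesin subunit SMC3. In FP-RMS the growth of the cells depends on a small circuit of muscle and neural crest transcription factors that sit beside large enhancers, and inhibitors of several class I deacetylases together are known to silence that circuit while they induce a typical set of genes. The comparison of Merck60 with OJI-1 asks what inhibitors aimed at fewer isoforms do to the same transcriptome.

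The 4 libraries differed in depth. Merck60 had 21137891 reads at 10 µM and 14270144 at 1 µM, OJI-1 had 12282928 at 10 µM and 6895436 at 1 µM, and the DMSO samples had 16772069 to 22400978. The flow cell was read from a code in the names of the deposited data. By that code no DMSO sample was run on the flow cell that carried both compounds. A difference from DMSO and a difference of flow cell thus cannot be told apart. A second reference was therefore used, the 18 samples of 9 compounds on the same flow cell whose target label names neither a deacetylase nor a bromodomain, called peers below. One of them, PFI-3, is labelled with the target SMARCA4 but is known to bind the bromodomain of that protein, so results that change without it are given. Muscle markers were present in all 4 treated samples (6 of 7 markers at 5 TPM or more, CDH3 under 1 TPM), and the 12 markers of blood, endothelial, epithelial, liver and glial cells summed to 2.71 to 5.69 TPM, against 3.39 to 4.46 TPM in DMSO, with PTPRC and KRT5 at 0 in all of them.

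The OJI-1 1 µM library stood apart. Its difference from DMSO fell with transcript length. With the genes in 5 equal groups by length, its median log2 difference was 0.05 in the shortest group and -0.28 in the longest, whose median transcript was 5.81-fold longer. The gap between the longest and the shortest group was -0.33 in OJI-1 1 µM, -0.12 in OJI-1 10 µM, 0.16 in Merck60 10 µM and 0.18 in Merck60 1 µM. Peers ranged from -0.25 to 0.42, with 17 of 18 positive, and the DMSO samples from -0.01 to 0.01. The comparisons were repeated with this trend removed from every sample, a step chosen after the data were seen, and those counts are given with the comparisons.

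**Figure D1:**
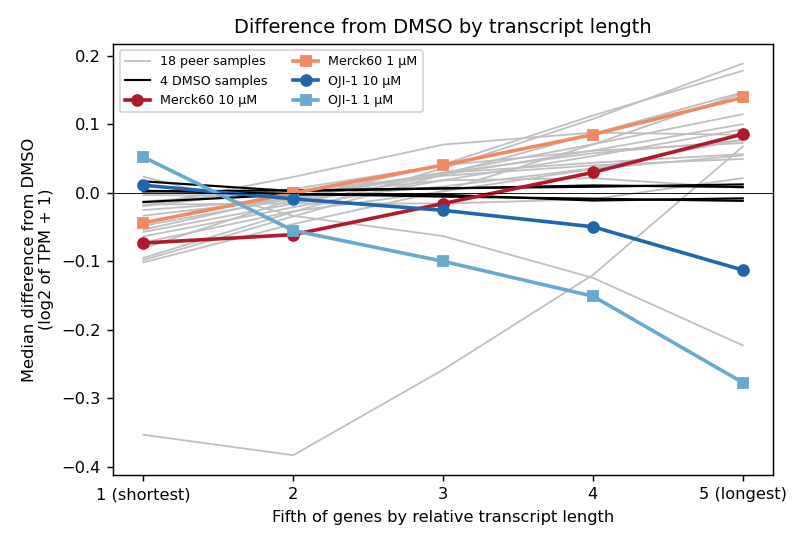
Median difference from DMSO (y axis, log2 of TPM + 1) in 5 groups of genes ordered by relative transcript length (x axis). Coloured lines are the 4 treated samples, black lines the 4 DMSO samples and grey lines the 18 peer samples. The OJI-1 1 µM line runs down to -0.28 in the longest group, and both Merck60 lines run up.

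Few genes differed from DMSO under either compound. Against DMSO, 15 of 10877 genes (0.138%) were called for Merck60, 2 higher (0.0184%) and 13 lower (0.12%). For OJI-1 22 (0.202%) were called, 12 higher (0.11%) and 10 lower (0.0919%). Calls were made with limma on log2(TPM + 1) at a Benjamini-Hochberg adjusted p under 0.05 over 16002 genes. Compound and flow cell cannot be told apart in these counts. The median log2 difference over all reported genes was 0.03 for Merck60 and -0.08 for OJI-1. With the length trend removed, 7 genes were called for Merck60 and 5 for OJI-1, and without the OJI-1 1 µM sample only 1 gene, RPL39, was called for OJI-1.

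The same 4 genes made up what the compounds shared against DMSO (0.0368% of genes), 26.7% of the Merck60 calls and 18.2% of the OJI-1 calls. ATP5E, which encodes the epsilon subunit of mitochondrial ATP synthase (chr20:57603733-57607422, hg19), was at 42.3 and 80.1 TPM under Merck60 10 and 1 µM and at 96.4 and 104 TPM under OJI-1 10 and 1 µM. In DMSO it was at 200 and 204 TPM in the replicate 1 samples and at 538 and 544 TPM in the replicate 2 samples, which came from another flow cell. All 4 treated samples lay below all 4 DMSO samples, but the peers lay there too, at 46.7 to 122 TPM. The fitted log2 difference of ATP5E from DMSO was -2.48 (adjusted p = 5.8e-06) for Merck60 and -1.71 (adjusted p = 0.0021) for OJI-1.

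GNG10, a G protein gamma subunit, and NME2, a nucleoside diphosphate kinase, had the same layout at low read numbers. GNG10 was at 0.877 to 2.08 TPM in the treated samples, on 3 to 14 reads, at 0.869 to 2.40 TPM in the peers, at 2.79 and 3.25 TPM in DMSO replicates 1 and at 11.4 and 12.4 TPM in DMSO replicates 2. NME2 was at 2.36 to 4.44 TPM in the treated samples and at 4.04 to 5.19 TPM and 19.98 to 21.4 TPM in the same pairs of DMSO samples, so Merck60 1 µM overlapped the lower pair. RPL39, a ribosomal protein of the large subunit, was the only shared gene that rose. It stood at 1072 and 1080 TPM under Merck60 and at 1152 and 1366 TPM under OJI-1, against 514 to 832 TPM in DMSO and 935 to 1221 TPM in peers. These values are uncertain where reads could be split among copies: ATP5E and RPL39 have processed pseudogenes, and NME2 and GNG10 overlap read-through transcripts. Of the 4 shared genes none was called against the peers in either compound, and no gene at all (0%) was called against the peers in both.

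The other genes called for 1 compound were mostly short transcripts. For Merck60 they included MZT2B, a component of the gamma-tubulin ring complex, SERF2 and the N-acetyltransferase subunit NAA38, with log2 differences from DMSO of -0.89, -0.76 and -0.75 (adjusted p = 0.029, 0.0044 and 0.029). SERF2 was at 45.6 and 63.6 TPM under Merck60 10 and 1 µM, at 74.2 and 77.4 TPM under OJI-1, at 81.7 to 98.2 TPM in DMSO and at 50.04 to 75.4 TPM in peers. TSPYL5, a nucleosome assembly protein family member, was the second gene that rose. It was at 105 and 96.9 TPM under Merck60 and at 71.4 and 66.1 TPM under OJI-1, against 71.0 to 72.7 TPM in DMSO. Its peers spanned 60.1 to 114 TPM, so the Merck60 level lay within them (adjusted p = 0.10 against peers), while the log2 difference of 0.55 from OJI-1 passed the test (adjusted p = 0.0070).

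For OJI-1 the genes that rose against DMSO were led by ribosomal proteins. RPL9 was at 2768 TPM at 10 µM and 3612 TPM at 1 µM, against 1841 to 2170 TPM in DMSO, with a log2 difference of 0.66 (adjusted p = 0.0022). RPL34, RPS3A and SEC61G, a subunit of the translocon, had log2 differences of 0.54, 0.51 and 0.50. Their highest level was in each case in the 1 µM sample, the one with the strongest length trend. Peers spanned 2125 to 3127 TPM for RPL9, 665 to 895 TPM for RPL34, 1223 to 1613 TPM for RPS3A and 366 to 548 TPM for SEC61G. For all of these genes OJI-1 10 µM lay within the peers and only OJI-1 1 µM above them. In limma against peers RPL9 and RPL34 were called (adjusted p = 0.010 and 0.026), and RPS3A and SEC61G were not (0.14 and 0.078). Genes that fell were HSPG2, which encodes the basement membrane proteoglycan perlecan, KIAA0754, SYNE2, a giant nuclear envelope protein, and the antisense transcript SEMA6A-AS1. SYNE2 was at 7.87 and 5.78 TPM under OJI-1 10 and 1 µM and at 13.5 and 13.4 TPM under Merck60, against 11.5 to 13.3 TPM in DMSO and 8.47 to 16.8 TPM in peers, so both OJI-1 samples lay below all of these.

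Against the peers of the same flow cell, Merck60 had 0 genes (0%) called by limma on TPM, with a smallest adjusted p of 0.0503 and 1035 genes at an unadjusted p under 0.05. This count was also 0 with the length trend removed, but it was 6 without PFI-3 among the peers, 8 with dose as a term, 13 with no filter on low values, 16 by voom on whole reads and 21 with all other compounds of the flow cell as peers. OJI-1 had 360 (3.31%), 26 higher (0.239%) and 334 lower (3.07%). Of the 334, 223 were in the longest group of genes, and of the 26, 23 were in the shortest. With the length trend removed 19 genes were called for OJI-1, with median-ratio scaling 50 higher and 142 lower, and without the OJI-1 1 µM sample 0.

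Between the compounds, Merck60 minus OJI-1 over both doses gave 156 genes (1.43%), 142 higher in Merck60 (1.31%) and 14 lower (0.129%), around a median log2 difference of 0.10 over all reported genes. This was the 1 pair of compounds tested. Median-ratio scaling turned the split into 49 higher and 27 lower. Of the 142 higher genes 103 were in the longest group, and of the 14 lower genes 13 were in the shortest. With the length trend removed 3 genes were called, without the OJI-1 1 µM sample 0, and without the Merck60 10 µM sample 1. At 10 µM alone, 1 sample against 1 with the spread taken from the rest of the screen, no gene passed (675 at an unadjusted p under 0.05, smallest adjusted p 0.081), and the 95% interval of a gene's log2 difference reached 0.59 to either side in the median gene. At 1 µM alone 187 genes were higher in Merck60 and 25 lower.

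SEMA6A-AS1 led the genes called between the compounds. This transcript runs opposite to SEMA6A, a semaphorin that guides axons and endothelial cells (chr5:115783194-115807369, hg19). It was at 11.5 and 10.5 TPM under Merck60 10 and 1 µM and at 2.92 and 1.90 TPM under OJI-1, against 5.74 to 7.32 TPM in DMSO, on 5 to 83 reads in the treated samples. The Merck60 samples lay above DMSO and the OJI-1 samples below it. The peers spanned 2.48 to 13.3 TPM and left out OJI-1 1 µM alone. The log2 difference was 1.83 ± 0.23 (SE, adjusted p = 0.00056), and 2.00 with the length trend removed (adjusted p = 0.000305). SEMA6A itself was at 146 and 119 TPM under Merck60 and at 78.5 and 67.6 TPM under OJI-1, against 94.8 to 102 TPM in DMSO and 80.9 to 108 TPM in peers, with Merck60 above and OJI-1 below both (log2 difference 0.84, adjusted p = 0.011). With the length trend removed the SEMA6A difference was 0.53 (adjusted p = 0.18). Whether the counting used strand is not given in the sources used here, so reads of the overlapping pair cannot be told apart.

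PLK2, a polo-like kinase of the stress and serum response (chr5:57749810-57755966, hg19), differed mainly at 10 µM. It was at 213 TPM under Merck60 10 µM and 89.4 TPM under Merck60 1 µM, at 47.4 and 54.9 TPM under OJI-1 10 and 1 µM, at 59.5 to 66.4 TPM in DMSO and at 28.7 to 71.5 TPM in peers. Both Merck60 samples lay above every DMSO and peer sample. The log2 difference between the compounds was 2.14 at 10 µM and 1.42 ± 0.33 over both doses (SE, adjusted p = 0.036). With the length trend removed it was 1.35 (adjusted p = 0.17).

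The genes higher in Merck60 had a median transcript length 2.40 times that of the median gene. HSPG2 was at 244 and 206 TPM under Merck60 10 and 1 µM, at 134 and 64.7 TPM under OJI-1, at 199 to 205 TPM in DMSO and at 112 to 214 TPM in peers, with the OJI-1 1 µM value the lowest of all (log2 1.26, adjusted p = 0.0068, and 0.82 with adjusted p = 0.18 with the length trend removed). FAT1, an atypical cadherin, was at 102 and 88.4 TPM under Merck60 and at 57.3 and 32.5 TPM under OJI-1. TTN, which encodes the sarcomere spring titin and was the only gene of 25 in the muscle differentiation list to be called between the compounds (1.43% of all genes were), was at 13.7 and 9.55 TPM under Merck60, at 5.35 and 4.02 TPM under OJI-1 and at 7.53 to 8.03 TPM in DMSO. KIAA0754, whose locus lies within that of MACF1, was at 31.0 and 31.4 TPM under Merck60, at 17.9 and 9.20 TPM under OJI-1, at 26.1 to 31.5 TPM in DMSO and at 13.7 to 37.9 TPM in peers. KIAA0754, DDI2 and PWAR5 had log2 differences of 1.21, 1.16 and 1.16.

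Genes lower in Merck60 were short and differed less. OSTF1, an adaptor protein first described in osteoclasts, was at 20.6 and 35.1 TPM under Merck60 10 and 1 µM, at 50.1 and 45.3 TPM under OJI-1 and at 36.9 to 40.1 TPM in DMSO (log2 difference -0.80, adjusted p = 0.037). SVBP, the partner of the tubulin carboxypeptidases, the splicing factor BUD31 and TMEM60 differed by -0.64, -0.64 and -0.53. The dynactin subunit DCTN3, SERF2, COPRS, a partner of an arginine methyltransferase, and the mitochondrial import subunit TOMM7 differed by -0.50, -0.49, -0.46 and -0.40. All of these but SERF2 had transcripts shorter than that of the median gene.

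**Figure D2:**
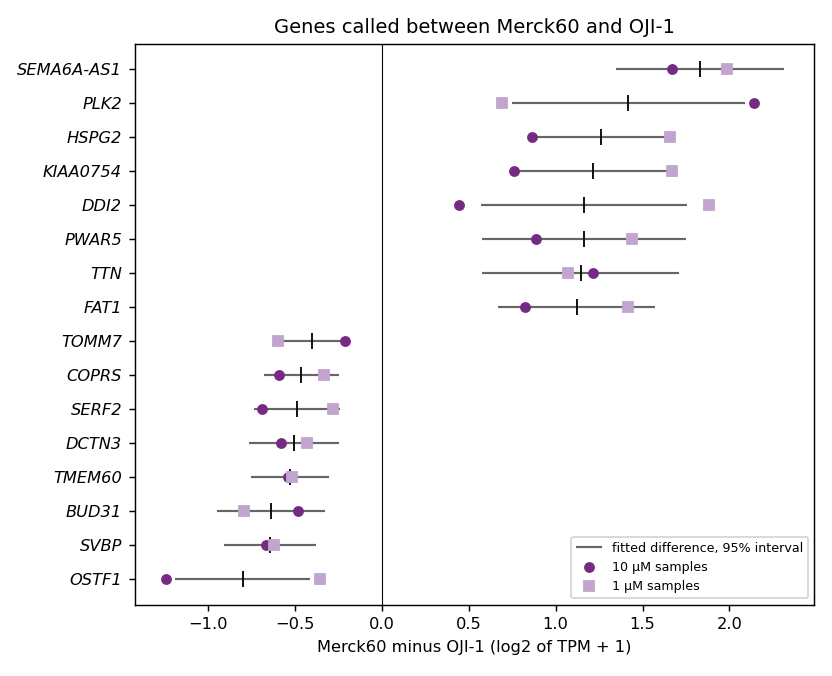
Merck60 minus OJI-1 on the log2(TPM + 1) scale (x axis) for the 8 genes with the largest called difference in each direction. Ticks and lines are the fitted difference and its 95% interval, dark circles the difference at 10 µM and light squares that at 1 µM. All 16 genes keep their sign at both doses, with PLK2 larger at 10 µM and HSPG2, KIAA0754 and FAT1 larger at 1 µM.

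No core regulatory factor passed the test under either compound. None of the 6 (MYOD1, MYOG, SOX8, MYCN, FOXF1 and PAX3) was called against DMSO, against peers or between the compounds. Over all genes the share called in these comparisons was 0% to 3.31%. MYOD1, the master factor of the muscle lineage, was at 507 and 510 TPM under Merck60 10 and 1 µM and at 558 and 427 TPM under OJI-1. The DMSO samples were at 640 to 648 TPM, above all 4 treated samples, and above all peers as well, at 221 to 592 TPM. SOX8, a neural crest factor, was at 472 and 571 TPM under Merck60 and at 595 and 537 TPM under OJI-1, below 664 to 707 TPM in DMSO and within 406 to 732 TPM in peers. MYCN was at 36.8 and 50.3 TPM under Merck60, at 50.3 and 41.1 TPM under OJI-1 and at 53.3 to 57.5 TPM in DMSO.

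MYOG, which drives terminal muscle differentiation, was at 581 and 535 TPM under Merck60 and at 462 and 493 TPM under OJI-1, against 572 to 587 TPM in DMSO. FOXF1, a forkhead factor, was at 102 and 83.9 TPM under Merck60, at 105 and 102 TPM under OJI-1 and at 104 to 115 TPM in DMSO. PAX3, whose row can also hold reads of the 5′ part of the fusion transcript, separated the compounds most among the 6. It was at 51.5 and 40.9 TPM under Merck60 and at 31.9 and 17.6 TPM under OJI-1, against 38.6 to 43.9 TPM in DMSO and 19.3 to 45.9 TPM in peers. Its log2 difference between the compounds was 0.93 with a 95% interval of 0.30 to 1.55 (adjusted p = 0.13). For MYOD1, SOX8 and MYCN the intervals ran from -0.68 to 0.80, from -0.47 to 0.22 and from -0.82 to 0.67, so neither a like nor an unlike response was shown.

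**Figure D3:**
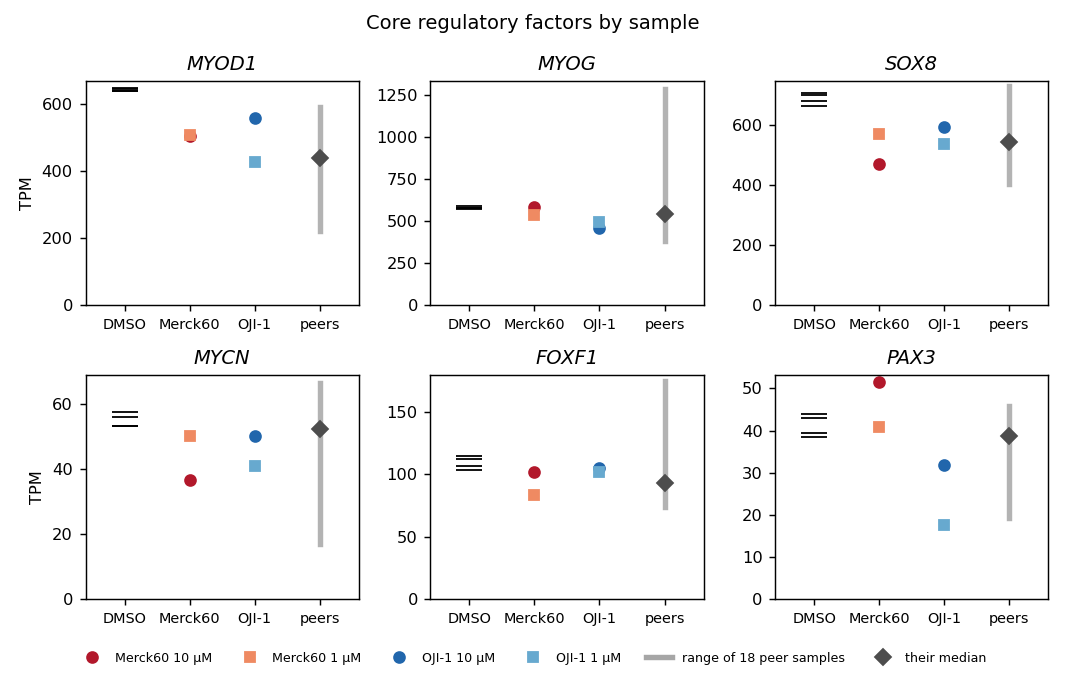
TPM (y axis) of the 6 core regulatory factors. Black dashes are the 4 DMSO samples, coloured symbols the 4 treated samples and the grey bar and diamond the range and median of 18 peer samples. MYOD1 lies below DMSO in all treated and all peer samples, and PAX3 is lowest under OJI-1 1 µM.

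The deacetylase genes themselves gave no call. Of the 11 zinc-dependent HDAC genes 10 were reported, HDAC9 being under 1 TPM in DMSO, and none of the 10 was called in any of the 5 comparisons. The share of all genes called there was 0% to 3.31%, so the lack of a call in 10 genes says little about them. HDAC1 was at 245 and 269 TPM under Merck60 and at 245 and 231 TPM under OJI-1, against 217 to 234 TPM in DMSO. HDAC2 was at 181 and 166 TPM under Merck60 and at 156 and 188 TPM under OJI-1, against 143 to 160 TPM in DMSO. HDAC8 was at 15.5 and 19.0 TPM under Merck60 and at 14.7 and 19.5 TPM under OJI-1, against 14.4 to 16.3 TPM in DMSO, with an interval of -0.57 to 0.60 for the difference between the compounds. Among 29 subunits of HDAC1/2 complexes and 13 cohesin genes none was called between the compounds, where 1.43% of all genes were.

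Genes known to rise under deacetylase inhibitors gave no call either, where 0% to 3.31% of all genes were called across the comparisons. The median log2 difference of the 13 reported members was -0.00 and -0.06 under Merck60 10 and 1 µM and 0.01 and -0.22 under OJI-1 10 and 1 µM, against -0.00, 0.05, -0.04 and -0.12 over all genes. CDKN1A, the cell cycle inhibitor p21, was at 41.4 TPM under Merck60 10 µM, above 24.9 to 29.2 TPM in DMSO, while the other treated samples were at 21.9 to 30.3 TPM. The linker histone H1F0 was at 647 TPM under Merck60 10 µM, above the peers at 438 to 619 TPM and above 438 to 453 TPM in DMSO. Neither was called. Of the 13 members, 6 were above the DMSO mean under Merck60 10 µM and 7 below it. Their log2 differences from DMSO ran from -0.65 (TUBB3) to 0.62 (CDKN1A). Only 1 of the 13, H1F0, was above all peers, so CDKN1A was not, and 1 was below all peers. Entinostat, a benzamide inhibitor of HDAC1, HDAC2 and HDAC3, was run at 1 µM for 6 h in a separate time course titled RH4, with its own 6 h DMSO sample and no replicate. There the same 13 genes had a median log2 difference of 0.84 and the core regulatory factors one of -0.71, where Merck60 1 µM stood at -0.06 and -0.20. This comparison held 10374 reported genes. Under entinostat 158 were at least 2-fold higher and 59 at least 2-fold lower. Merck60 had 0 and 3 at 1 µM, and 26 and 27 at 10 µM. Entinostat was set against its own DMSO sample and Merck60 against the mean of the screen DMSO samples. How far this changes the counts was not tested.

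A contrast of the whole list, without a call for any single gene, lay in the genes of cholesterol synthesis and uptake. These genes are switched on together by the factor SREBP2 when sterols in the endoplasmic reticulum run low, and INSIG1 is both a target and a brake of that factor. At 10 µM all 24 listed genes were lower under Merck60 than under OJI-1, where 46.5% of all reported genes were, with a median log2 difference of -1.22 against 0.02 over all genes. Under Merck60 10 µM 22 of the 24 were below the range of the DMSO samples, with a median of -0.57, and under OJI-1 10 µM 23 were above it, with a median of 0.65. The summed level was 1345 TPM and 3102 TPM, against 1924 to 2037 TPM in DMSO. At 1 µM the medians were -0.10 and 0.23, the same order but smaller.

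None of the 24 was called in any of the 5 comparisons over both doses, where 0% to 3.31% of all genes were. A gap between doses counts as spread there, so a gene that changes with dose is harder to call. With dose as a term FDFT1, SQLE, INSIG1 and HSD17B7 were called lower than peers under Merck60, and FDFT1 also lower than under OJI-1 (adjusted p = 0.041). SREBF2, which encodes SREBP2, was called lower than peers under OJI-1 in the same fit. Without PFI-3 among the peers FDFT1 and SQLE were called (adjusted p = 0.030 for both). On whole reads with voom, FDFT1, SQLE and ACAT2, a cytosolic thiolase, were called lower than peers under Merck60 (adjusted p = 0.013, 0.017 and 0.039). The nearest was FDFT1, squalene synthase, with a log2 difference of -1.31 between the compounds (95% interval -2.03 to -0.59, adjusted p = 0.069) and of -1.37 between Merck60 and peers (adjusted p = 0.0503). It was at 115 and 197 TPM under Merck60 10 and 1 µM, at 423 and 331 TPM under OJI-1, at 218 to 239 TPM in DMSO and at 196 to 1111 TPM in peers. INSIG1 was at 32.2 and 64.5 TPM under Merck60 and at 160 and 107 TPM under OJI-1, against 77.3 to 83.3 TPM in DMSO. The 4 samples of the compounds did not overlap DMSO, with OJI-1 above and Merck60 below it.

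The same order was seen in other enzymes of the pathway. HMGCS1, which makes HMG-CoA, was at 56.1 and 82.4 TPM under Merck60 and at 172 and 113 TPM under OJI-1, against 82.0 to 94.1 TPM in DMSO, which Merck60 1 µM overlapped. MVK, mevalonate kinase, was at 15.2 and 21.5 TPM under Merck60 and at 44.4 and 30.4 TPM under OJI-1, against 25.1 to 29.4 TPM. The epoxidase SQLE was at 77.5 and 119 TPM under Merck60 and at 224 and 163 TPM under OJI-1, against 129 to 144 TPM. The exceptions at 10 µM were CYP51A1 and TM7SF2, which were not below DMSO under Merck60, and PMVK, which was not above it under OJI-1.

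Against the peers of the same flow cell, Merck60 10 µM lay apart. In 21 of the 24 genes it was below all 18 peer samples, where 8.54% of all reported genes were, while OJI-1 10 µM was above all peers in 0 of the 24 (2.16% of all genes). The list median of the peers ran from -0.21 to 1.96, with 16 of 18 above 0, so the OJI-1 medians of 0.65 and 0.23 lay inside it and the Merck60 10 µM median of -0.57 below it. The lowest medians among the peers were those of PFI-3, and over the other 16 peer samples the range was 0.03 to 1.96, with Merck60 10 µM below all of them in 22 of the 24 genes (8.87% of all genes). Removing the length trend left the 10 µM medians at -0.57 and 0.67.

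**Figure D4:**
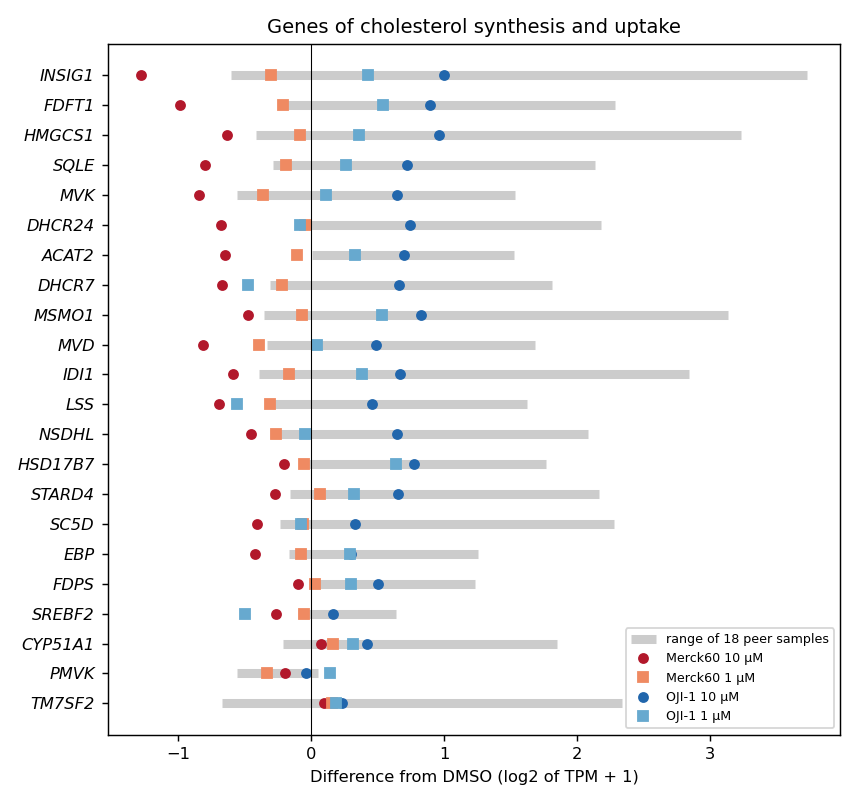
Difference from DMSO (x axis, log2 of TPM + 1) of 22 of the 24 genes of cholesterol synthesis and uptake, ordered by the gap between the compounds at 10 µM. Red symbols are Merck60, blue symbols OJI-1, circles 10 µM and squares 1 µM, and grey bars the range of 18 peer samples. Merck60 10 µM lies left of the grey bar in 19 of the 22, while OJI-1 10 µM lies inside it.

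Because these genes lay on opposite sides of DMSO at 10 µM under the compounds, the 250 bases before the start site are shown for INSIG1, HMGCS1 and MVK, which are among the 5 with the widest gap. The sequences are from RefSeq on GRCh38.p14 and are read on the strand of the gene, with capitals for the CCAAT box (CCAAT or, on the other strand, ATTGG), the site of the factor NF-Y, which is known to act beside SREBP2 at sterol-regulated promoters.
INSIG1 (chr7:155297628-155297877, + strand): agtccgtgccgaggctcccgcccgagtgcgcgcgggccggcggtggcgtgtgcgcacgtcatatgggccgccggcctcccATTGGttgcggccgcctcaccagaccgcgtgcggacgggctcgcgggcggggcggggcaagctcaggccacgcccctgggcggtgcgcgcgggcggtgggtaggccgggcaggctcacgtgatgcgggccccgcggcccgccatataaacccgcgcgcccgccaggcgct
HMGCS1 (chr5:43313413-43313662, - strand): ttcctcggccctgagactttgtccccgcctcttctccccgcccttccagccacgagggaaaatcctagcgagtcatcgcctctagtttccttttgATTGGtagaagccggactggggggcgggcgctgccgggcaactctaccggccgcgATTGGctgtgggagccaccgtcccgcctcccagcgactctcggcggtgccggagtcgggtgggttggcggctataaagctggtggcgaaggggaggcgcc
MVK (chr12:109573544-109573793, + strand): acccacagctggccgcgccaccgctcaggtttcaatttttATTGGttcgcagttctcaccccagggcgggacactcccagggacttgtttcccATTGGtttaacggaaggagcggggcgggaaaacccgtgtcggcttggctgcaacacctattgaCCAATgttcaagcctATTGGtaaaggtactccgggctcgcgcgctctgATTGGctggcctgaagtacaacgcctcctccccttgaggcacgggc
INSIG1 holds 1 match, HMGCS1 2 and MVK 5. Of the 24 genes 18 matched a RefSeq promoter by symbol, and 15 of these 18 (83.3%) held the motif in this window, against 35.7% of the 8275 reported genes with a promoter. FDFT1 and SQLE, also among the 5 genes with the widest gap, were not among these 15. Whether they were among the 18 is not given here. The core of the classical sterol element, CACCCCAC on either strand, was found in 1 of the 18, SREBF2, and in 2.18% of the 8275. A match is a description of the letters and not a test of binding.

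Counts of large differences in single samples, which carry no test, went with dose in Merck60 and against it in OJI-1. Of 10632 genes other than small RNAs, 32 (0.301%) were at least 2-fold higher than DMSO and 31 (0.292%) at least 2-fold lower under Merck60 10 µM, and 0 (0%) and 3 (0.0282%) under Merck60 1 µM. OJI-1 10 µM had 2 higher (0.0188%) and 5 lower (0.047%). OJI-1 1 µM, the shallowest library, had 3 higher (0.0282%) and 97 lower (0.912%). The 18 peer samples had 9 to 2345 such genes, with a median of 39.5.

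The genes highest under Merck60 10 µM relative to DMSO, chosen after their values were seen and from 1 sample, included HRC, ADAMTS1 and CTGF. HRC, a calcium-binding protein of the sarcoplasmic reticulum, was at 27.7 and 14.6 TPM under Merck60 10 and 1 µM, at 9.01 and 9.54 TPM under OJI-1 and at 6.83 to 9.04 TPM in DMSO. The secreted protease ADAMTS1 was at 324 and 157 TPM under Merck60 and at 106 and 93.1 TPM under OJI-1, against 103 to 113 TPM in DMSO. The matricellular protein CTGF was at 60.04 and 29.9 TPM under Merck60 and at 24.0 and 22.4 TPM under OJI-1, against 17.8 to 22.4 TPM. For all 3 genes Merck60 was above every DMSO sample at both doses. The peers spanned 5.83 to 27.2 TPM for HRC, 99.9 to 204 TPM for ADAMTS1 and 13.4 to 72.9 TPM for CTGF. Merck60 10 µM was thus above the peers for HRC and ADAMTS1 and within them for CTGF, and Merck60 1 µM was within them for all 3.

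Within the flow cell, 2 of the alternatives chosen after the data were seen are described further. These were voom on whole reads, with 16 genes, and Merck60 10 µM alone, with 15, a fit of 1 sample whose spread was taken from the other groups. Both contain the Merck60 10 µM sample, and without it the fit on TPM called 0. Of the 8 genes called by both, those reported here were PLK2, HRC, ISLR, an immunoglobulin-like secreted protein, CDC42EP3, an effector of the small GTPase CDC42, and ARHGAP28, a GTPase activator, all higher than peers, and KAT2B, an acetyltransferase of histones, and FDFT1, both lower. In the voom fit of limma the log2 difference from peers was 1.32 for PLK2 (adjusted p = 0.0061) and -1.41 for FDFT1 (adjusted p = 0.013). CDC42EP3 was at 132 and 84.8 TPM under Merck60 10 and 1 µM, at 52.1 and 55.9 TPM under OJI-1 and at 54.7 to 91.7 TPM in peers. KAT2B was at 4.02 and 6.34 TPM under Merck60 and at 6.39 and 7.22 TPM under OJI-1, against 6.24 to 13.5 TPM in peers. Without the Merck60 10 µM sample the adjusted p of PLK2 and of FDFT1 was 1.0.

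Other pathways gave few calls between the compounds. The Notch receptors NOTCH2 and NOTCH3 were the called members of 12 Notch genes, where 1.43% of all genes were called. NOTCH2 was at 109 and 100 TPM under Merck60 and at 69.7 and 49.8 TPM under OJI-1, and NOTCH3 at 123 and 118 TPM and at 91.3 and 50.6 TPM. Of 17 reported genes associated with PAX3-FOXO1 the potassium channel KCNN3 and the receptor kinase ALK were called (again against 1.43% of all genes), with log2 differences of 0.73 and 0.67. ALK was at 36.8 and 37.8 TPM under Merck60, within 36.5 to 38.2 TPM in DMSO, and at 27.8 and 19.3 TPM under OJI-1. The transcripts of these 4 genes are 2.00 to 4.17 times as long as that of the median gene, and none was among the 3 genes called with the length trend removed. The lists of immediate early genes, ERK feedback, unfolded protein response, hypoxia, p53 targets, heat shock, DNA replication, mitosis, interferon response, ID and BMP genes, acetyltransferases and bromodomain readers, metallothioneins and neuronal genes had no call in this comparison.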

How the data were processed

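RNA-seq was read as the authors deposited it, as TPM per gene and sample. Per the study's methods, reads were aligned with STAR to hg19 and quantified with RSEM, so a TPM level depends on the length and the total of each library. Whole reads were recovered from the TPM steps and used for depth and one alternative. Genes at 1 TPM or more in 2 samples (16002) were fitted on log2(TPM + 1) with limma 3.58.1 (trend and Benjamini-Hochberg adjustment, R 4.3.3), over all compounds of the screen with 21 residual degrees of freedom. The 2 doses of a compound counted as its 2 values, and DMSO replicates of one concentration were averaged and counted once. Over 10378 genes the median squared difference between DMSO samples was 2.47 times counting noise for concentration, 2.21 for flow cell and 1.03 for what remained. Beyond flow cell, replicates of one concentration thus differed by about counting noise. The alternative with 4 separate DMSO samples counts them as independent, which the labels do not establish. The pair was compared at matched doses as the mean of 10 and 1 µM. The text names the called genes with the largest differences in each direction (up to 6 against DMSO, 8 between compounds, 5 shared) and up to 4 called genes per list, leaving out small RNAs and some genes that are not reported here. Other genes named were chosen after their values were seen. Members and lists were chosen with earlier results of these data known. The fits were tested on simulated data.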

Additional observations from a re-analysis of the deposited data

How the results depend on the processing

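Counts of called genes moved with the fit, and the cause was not tested unless the setting itself shows it. Voom, single doses, removal of the length trend and peers without PFI-3 were chosen after the data were seen. Merck60 against DMSO (15 genes) gave 0 with its own samples only, 89 with 4 separate DMSO samples, 150 with voom, 3 at 1 µM only, 7 with the length trend removed and 3 with a 2-fold minimum, and 3 to 19 without 1 sample (3 without Merck60 10 µM, 8 and 4 without DMSO replicate 2 of 0.2% and 0.1%). OJI-1 against DMSO (22) gave 14 with median-ratio scaling, 0 with its own samples, 192 with 4 DMSO samples, 35 with voom, 2 at 10 µM, 395 at 1 µM, 5 with the length trend removed and 7 with a 2-fold minimum, and 1 to 446 without 1 sample (446 without OJI-1 10 µM, 1 without OJI-1 1 µM, 14 and 11 without DMSO replicate 2 of 0.2% and 0.1%). Merck60 minus OJI-1 (156) gave 76 with scaling, 0 with own samples, 1 on the flow cell only, 240 with 4 DMSO samples, 34 with voom, 0 at 10 µM, 3 with the length trend removed and 14 with a 2-fold minimum, and 0 to 571 without 1 sample (1 without Merck60 10 µM, 49 without Merck60 1 µM, 571 without OJI-1 10 µM, 0 without OJI-1 1 µM). Merck60 against peers (0) gave 13 with no filter, 8 with dose as a term, 21 with all flow cell compounds as peers, 6 without PFI-3 among the peers, 16 with voom and 15 at 10 µM, and 0 to 12 without 1 sample (12 without Merck60 1 µM, 4 each without DMSO 0.2% replicate 1 and 0.1% replicate 2). OJI-1 against peers (360) gave 192 with scaling, 6 on the flow cell only, 17 with voom, 0 at 10 µM, 659 at 1 µM, 19 with the length trend removed and 19 with a 2-fold minimum, and 0 to 739 without 1 sample (739 without OJI-1 10 µM, 0 without OJI-1 1 µM). No paired analysis was possible because the groups compared share fewer than 2 replicate numbers, each compound having 1 sample per dose. The samples are matched by dose instead, and with dose as a term the counts, in the order above, were 17, 27, 170, 8 and 416. The shallowest library, OJI-1 1 µM, had 6895436 reads.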
